A study of Mus musculus with 12 samples.

Results

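The collagen chain genes of the mouse are the genes whose symbol consists of Col, the number of the collagen type, the letter a and the number of the chain. Every probe set of the array that the platform annotation paired with exactly 1 such symbol was taken, whatever its values. This gave 46 probe sets for 44 genes, out of 21789 probe sets for 19938 genes that were tested. They comprise 11 genes of fibrillar collagens, 6 genes of the basement membrane collagen type IV, 6 genes of type VI with 8 probe sets, 9 genes of fibril-associated collagens, 2 multiplexin genes, 4 genes of transmembrane collagens and 6 genes of network-forming and other collagens. No filter on low signal was applied, so all 46 probe sets entered each comparison.

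Expression was measured on 12 arrays of the type Affymetrix Mouse Gene 1.0 ST. The cells were primary hepatocytes (mouse HPC), the main epithelial cells of the liver, taken from male C57BL/6 mice by the collagenase method. All cells were plated on dishes coated with collagen in the serum-free medium HepatoZYME-SFM, and the medium was exchanged 1 h before stimulation. There were 3 arrays of untreated control cells and 3 arrays each of cells treated for 20 min, 2 h and 4 h with human TGF-β1, a recombinant protein, at 1 ng/mL. The 20 min group follows the sample labels, while the study's methods name 1 h and not 20 min for these cells. Its supplement marks both times for them and states that the 1 h chips were removed for quality reasons. Untreated cells were measured at a single time, so the length of culture after the medium exchange and the treatment cannot be told apart. The paper speaks of 3 biological replicates, but the labels do not say whether they come from separate mice or isolations. The p-values of the main fit therefore measure the spread between these arrays that remains after time point and replicate number are fitted.

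Collagens are triple-helical proteins of the extracellular matrix, each built from 3 chains. Fibrillar collagens form the rope-like fibers of connective tissue and of liver scars, type IV forms the meshwork of basement membranes, and the other types sit on fibrils, in microfibrils, in plasma membranes or next to basement membranes. In the liver, fibrillar collagen is made mainly by hepatic stellate cells and fibroblasts after activation, and TGF-β is a known inducer of collagen genes in those cells.

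Cells and arrays were checked against marker genes. The 10 hepatocyte markers measured, such as the serum protein gene Alb, had mean log2 signals of 12.56 to 14.61, all above the upper quartile of all tested probe sets, which was 9.20. The 17 markers of stellate cells and fibroblasts lay between 4.78 for the proteoglycan gene Lum and 9.32 for Ecm1, with a median of 6.66. The retinol esterifying enzyme gene Lrat was at 5.54, below the lower quartile of 5.91, while Dcn was at 8.46 and Reln at 8.32. Replicate 1 stood apart: limma called a difference between the replicate numbers for 34.8% of all tested probe sets, and replicate 1 was the highest for the 9 of 12 endothelial markers called in this test. The paper reports a strong batch effect in its mouse HPC chips but does not name the batches. Whether that effect matches the replicate numbers was not tested. The summed endothelial signal on the linear scale was 3466 to 3808 in the 4 arrays of replicate 1 and 2459 to 2588 in the other 8 arrays.

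The mean log2 signals of the collagen probe sets ranged from 5.65 to 9.03 with a median of 7.31, against a median of 7.23 over all tested probe sets. In all, 27 of 46 lay above that median, 0 above the upper quartile and 2 below the lower quartile. No detection limit was computed, so these levels do not show which chains were expressed above the background of the array. The median over the collagen probe sets of an array was 7.19 to 7.28 in control cells, 7.24 to 7.43 at 20 min, 7.18 to 7.44 at 2 h and 7.19 to 7.49 at 4 h. These ranges overlapped, and at each treated time the highest median belonged to replicate 1. The median over all tested probe sets was also highest in replicate 1 at each treated time. Here and below, values are log2 signals, and per-array values run in the order of replicates 1 to 3.

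After 4 h of TGF-β1, limma with Benjamini-Hochberg adjustment called 1 of 46 collagen probe sets at an adjusted p under 0.05, Col15a1, which rose. Over all tested probe sets 4.59% were called, 1.57% higher and 3.02% lower. At an unadjusted p under 0.05 there were 4 of 46 collagen probe sets (8.7%), against 17% of all probe sets: Col15a1, Col18a1, Col6a6 and Col4a2. At 20 min and at 2 h limma called 0 of 46, as it did 0% of all tested probe sets. The unadjusted p was under 0.05 for 1 collagen probe set at 20 min (all tested: 8.46%) and for 0 at 2 h (all tested: 6.28%). Between 4 h and 2 h, limma called 0 of 46 (all tested: 0.078%, with 0.0505% higher and 0.0275% lower), with 2 at an unadjusted p under 0.05 (4.35%, all tested: 8.83%), and over the time course as a whole its moderated F test called 0 of 46 (all tested: 1.4%), also with 2 at an unadjusted p under 0.05 (4.35%, all tested: 12.1%). When a 2-fold change or more and an adjusted p under 0.01 were asked for, 0 of 46 collagen probe sets and 0.0964% of all tested ones passed at 4 h.

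For 45 of 46 probe sets the interval lay within 0.5 log2 units on either side of 0, and for all 46 within 1 log2 unit, which is a 2-fold change. For a probe set at background level, a narrow interval would not show that the RNA stayed unchanged. The standard errors of the log2 fold changes ranged from 0.06 to 0.28 with a median of 0.08. Col12a1 was the probe set with the widest interval, -0.30 to 0.93.

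**Figure D1:**
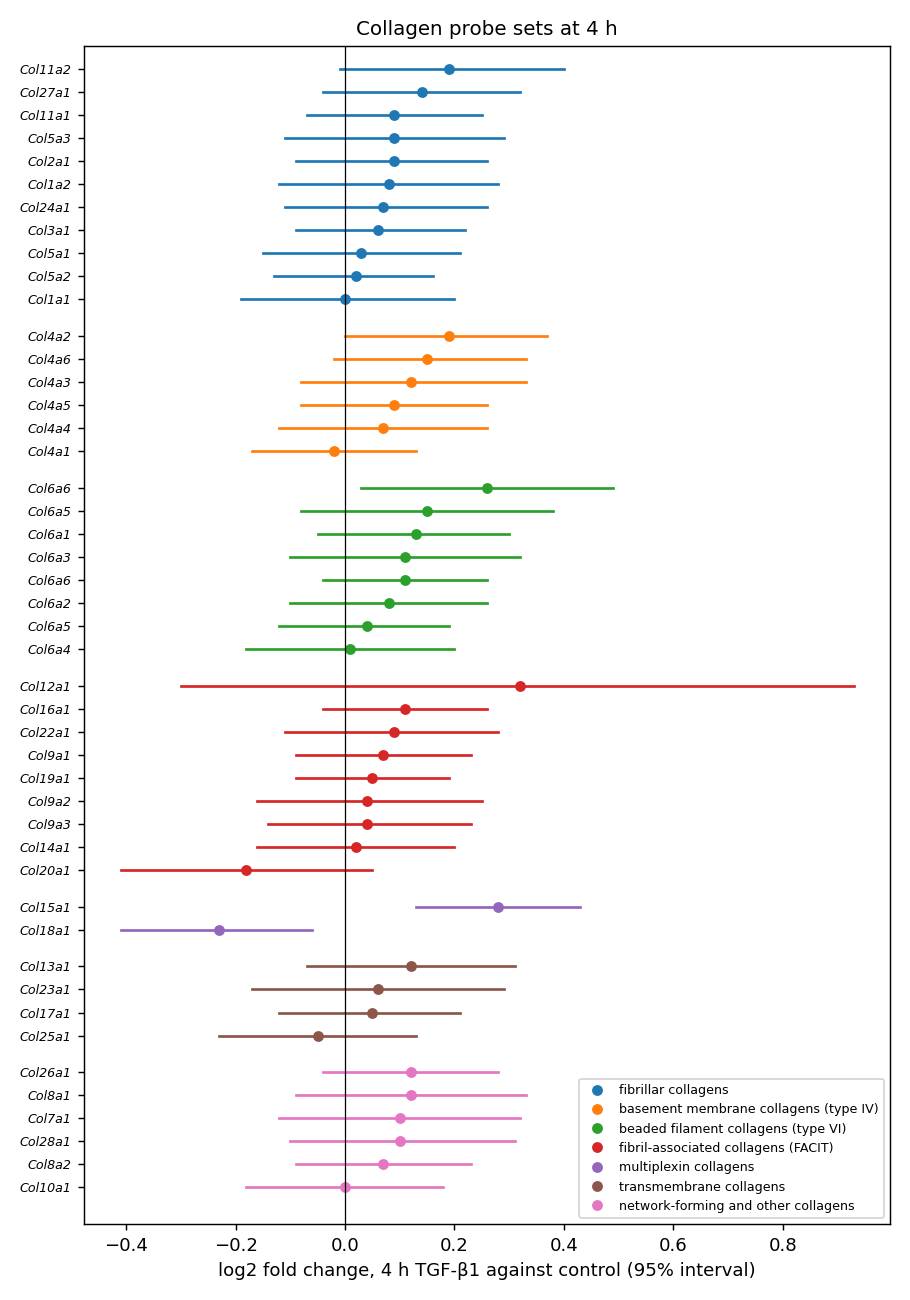
Log2 fold change of each collagen probe set after 4 h of TGF-β1 against control, with its 95% interval from limma (n = 3 arrays per group); rows are grouped and coloured by collagen class, and Col6a5 and Col6a6 have 2 rows each. Most points lie slightly right of 0 with intervals that cross it, Col15a1 lies right of 0 at 0.28 and Col18a1 left of it at -0.23.

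The multiplexins Col15a1 and Col18a1 encode the basement membrane-associated collagens XV and XVIII, which carry glycosaminoglycan side chains. The C-terminal fragment of collagen XVIII is endostatin, an inhibitor of blood vessel growth. Col15a1 lies on chromosome 4 (GRCm38.p6, 47207655 to 47313167) and Col18a1 on chromosome 10 (77052178 to 77166530). Because these genes had the smallest p-values at 4 h, with log2 fold changes of opposite sign, the 250 bases before their annotated start sites are shown, with those of Col1a2 and Col3a1, which encode chains of the main fibrillar collagens of scar tissue. The sequences are from RefSeq, build GRCm38.p6, written 5′ to 3′ on the strand of the gene, and capitals mark CAGAC or its reverse complement GTCTG, the short motif known as a SMAD-binding element.
Col15a1, chr4:47207762-47208011, plus strand: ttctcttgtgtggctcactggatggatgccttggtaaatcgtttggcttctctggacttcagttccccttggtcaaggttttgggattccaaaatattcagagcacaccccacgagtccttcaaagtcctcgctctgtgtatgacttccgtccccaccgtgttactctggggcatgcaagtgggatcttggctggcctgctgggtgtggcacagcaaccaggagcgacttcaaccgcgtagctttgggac
Col18a1, chr10:77113706-77113955, minus strand: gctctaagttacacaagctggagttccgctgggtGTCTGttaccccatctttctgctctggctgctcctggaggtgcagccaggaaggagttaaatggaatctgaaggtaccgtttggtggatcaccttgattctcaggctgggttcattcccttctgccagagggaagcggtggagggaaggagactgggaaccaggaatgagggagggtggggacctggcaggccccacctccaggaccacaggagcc
Col18a1, chr10:77166531-77166780, minus strand: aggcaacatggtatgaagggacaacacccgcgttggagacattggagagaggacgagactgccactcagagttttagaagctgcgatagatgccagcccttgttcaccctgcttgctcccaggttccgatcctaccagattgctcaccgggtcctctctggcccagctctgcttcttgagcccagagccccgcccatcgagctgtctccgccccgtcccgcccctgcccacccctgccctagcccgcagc
Col1a2, chr6:4505368-4505617, plus strand: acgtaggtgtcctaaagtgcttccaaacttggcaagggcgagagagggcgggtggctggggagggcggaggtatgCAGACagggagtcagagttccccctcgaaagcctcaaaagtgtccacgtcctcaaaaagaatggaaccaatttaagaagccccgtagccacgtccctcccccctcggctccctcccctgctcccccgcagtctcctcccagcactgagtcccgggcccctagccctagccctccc
Col3a1, chr1:45311288-45311537, plus strand: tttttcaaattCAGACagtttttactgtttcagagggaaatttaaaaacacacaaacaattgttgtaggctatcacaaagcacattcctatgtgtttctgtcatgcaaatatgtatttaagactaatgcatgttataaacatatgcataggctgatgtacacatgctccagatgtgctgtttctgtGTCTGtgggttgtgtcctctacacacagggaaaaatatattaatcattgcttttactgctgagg

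The windows of Col15a1 and of the downstream start of Col18a1 lie inside the annotated genes, since other transcripts start further upstream. The windows of Col15a1 and the upstream start of Col18a1 did not hold the motif. The downstream window of Col18a1 held it once, starting at position -216, Col1a2 once at -175 and Col3a1 at -239 and -64, counted from the start site. RefSeq windows were at hand for 35 of 44 collagen genes, 38 windows in all, and 17 of them (44.7%) held CAGAC on either strand, against 42.2% of all 32851 windows of the same length. The palindrome GTCTAGAC was in 0 of 38 collagen windows and in 0.167% of all windows. A match describes the letters only.

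Col15a1 had 7.39, 7.39 and 7.37 in control cells, 7.46, 7.54 and 7.39 at 20 min, 7.45, 7.40 and 7.55 at 2 h and 7.71, 7.58 and 7.69 at 4 h. The 3 arrays at 4 h were above all 9 other arrays, while control, 20 min and 2 h overlapped. The log2 fold change at 4 h was 0.28 ± 0.07 (limma, adjusted p = 0.0433, 95% interval 0.13 to 0.43), higher in 3 of 3 replicates, and the difference between 4 h and 2 h was 0.19 ± 0.07 (limma, adjusted p = 0.372). This call was close to the threshold: the change was 0.25 to 0.32 in 25 alternative fits, but the call was lost in 15 of them, among them leaving out any 1 replicate number (limma, adjusted p = 0.158 without replicate 1, 0.131 without replicate 2 and 0.294 without replicate 3), any single control or 4 h array (limma, adjusted p = 0.0771 to 0.163) and the array of replicate 1 at 2 h (limma, adjusted p = 0.0524). The F test over the time course gave an adjusted p of 0.196 in limma.

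Col18a1 had 9.72, 8.84 and 8.73 in control cells, 9.73, 8.83 and 8.78 at 20 min, 9.64, 8.79 and 8.76 at 2 h and 9.25, 8.74 and 8.61 at 4 h. In each replicate the 4 h array was the lowest of its 4, by 0.47 below control in replicate 1 and by 0.11 and 0.12 in the others, but the groups overlapped as replicate 1 was higher throughout. The log2 fold change at 4 h was -0.23 ± 0.08 (limma, adjusted p = 0.134), lower in 3 of 3 replicates, which did not pass the threshold. The mean over the 4 arrays was 9.58, 8.80 and 8.72 in replicates 1 to 3 (limma F test of the replicate number, adjusted p = 4e-06), a wider spread than that of the time point means. Whether the changes of Col15a1 and Col18a1 differ from each other was not tested.

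**Figure D2:**
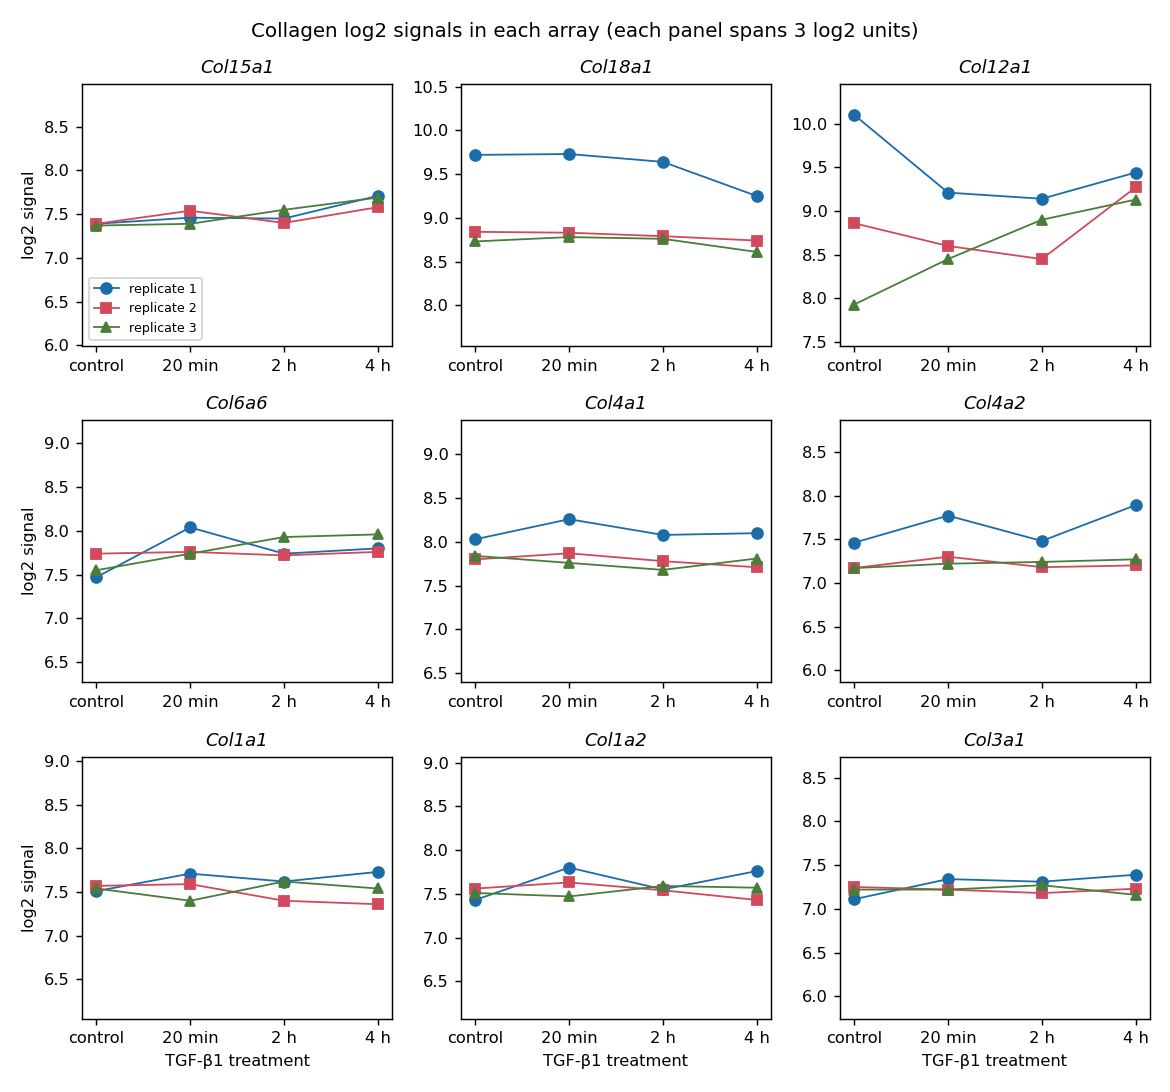
Log2 signal of 9 collagen genes in each of the 12 arrays, with treatment on the horizontal axis and 1 line and marker per replicate; each panel spans 3 log2 units at its own level. Col15a1 is highest at 4 h in each replicate, replicate 1 of Col18a1 lies above the other replicates, the replicates of Col12a1 are far apart in control cells and close at 4 h, and the lines of Col1a1, Col1a2 and Col3a1 are nearly flat.

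The fibrillar collagens were near their control level at all times, and limma called 0 of 11 in each comparison. Their log2 fold changes at 4 h were 0.00 to 0.19 with a median of 0.08, against 0.02 over all tested probe sets. Col1a1 and Col1a2 encode the chains of type I collagen, the main collagen of scars. Col1a1 had 7.51, 7.57 and 7.54 in control cells, 7.71, 7.59 and 7.40 at 20 min, 7.62, 7.40 and 7.62 at 2 h and 7.73, 7.36 and 7.54 at 4 h. Col1a2 had 7.43, 7.56 and 7.51 in control cells, 7.80, 7.63 and 7.47 at 20 min, 7.55, 7.54 and 7.59 at 2 h and 7.76, 7.43 and 7.57 at 4 h. The groups overlapped for both, and the log2 fold change at 4 h was 0.00 ± 0.09 for Col1a1 (95% interval -0.19 to 0.20) and 0.08 ± 0.09 for Col1a2 (-0.12 to 0.28). Col3a1, whose product co-assembles with type I in soft tissue, had 7.11, 7.25 and 7.22 in control cells, 7.34, 7.22 and 7.22 at 20 min, 7.31, 7.18 and 7.27 at 2 h and 7.39, 7.23 and 7.16 at 4 h. Its log2 fold change at 4 h was 0.06 ± 0.07 (-0.09 to 0.22), and 1 of the 4 h arrays lay above the control arrays and the others within their range.

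Type V collagen sits in the core of type I fibrils and sets their diameter. Its chain gene Col5a1 had 7.43, 7.49 and 7.45 in control cells, 7.63, 7.57 and 7.45 at 20 min, 7.66, 7.33 and 7.50 at 2 h and 7.67, 7.34 and 7.46 at 4 h. Col5a2 had 6.17, 6.32 and 6.37 in control cells, 6.25, 6.43 and 6.30 at 20 min, 6.28, 6.30 and 6.34 at 2 h and 6.33, 6.29 and 6.29 at 4 h. Neither gene separated the groups, and the changes at 4 h were 0.03 ± 0.08 and 0.02 ± 0.07. Col11a2, a chain of the cartilage collagen XI, had 7.12, 7.40 and 7.24 in control cells, 7.46, 7.53 and 7.37 at 20 min, 7.32, 7.18 and 7.48 at 2 h and 7.50, 7.38 and 7.45 at 4 h. Its log2 fold change at 4 h was 0.19 ± 0.09 (limma, adjusted p = 0.333), and the lowest 4 h array was below the highest control array. Col27a1, a fibrillar collagen of cartilage, had 8.13, 8.11 and 7.95 in control cells, 8.38, 8.23 and 8.05 at 20 min, 8.17, 7.85 and 8.07 at 2 h and 8.41, 8.09 and 8.11 at 4 h. Its change at 4 h was 0.14 ± 0.08 (limma, adjusted p = 0.427), while its difference between 4 h and 2 h was 0.17 ± 0.08 (limma, adjusted p = 0.581). The remaining members, Col2a1, Col5a3, Col11a1 and Col24a1, had log2 fold changes of 0.07 to 0.09 at 4 h.

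The type IV genes lie in head-to-head pairs that start close together, Col4a1 and Col4a2 on chromosome 8, Col4a3 and Col4a4 on chromosome 1, and Col4a5 and Col4a6 on chromosome X. The chains of Col4a1 and Col4a2 form the type IV network found in most basement membranes. Limma called 0 of 6 in each comparison, with a median log2 fold change of 0.11 at 4 h. Col4a1 had 8.03, 7.80 and 7.84 in control cells, 8.26, 7.87 and 7.76 at 20 min, 8.08, 7.78 and 7.68 at 2 h and 8.10, 7.71 and 7.81 at 4 h. Col4a2 had 7.46, 7.17 and 7.17 in control cells, 7.77, 7.30 and 7.22 at 20 min, 7.48, 7.18 and 7.24 at 2 h and 7.89, 7.20 and 7.27 at 4 h. For both genes replicate 1 was the highest at every time, by 0.34 and 0.44 between the highest and the lowest replicate mean. The change at 4 h was -0.02 ± 0.07 for Col4a1 (limma, adjusted p = 0.938) and 0.19 ± 0.08 for Col4a2 (limma, adjusted p = 0.284). For Col4a2 the difference was 0.43 in replicate 1 and 0.03 and 0.10 in the others. Col4a6 had 6.38, 6.38 and 6.40 in control cells, 6.41, 6.63 and 6.45 at 20 min, 6.57, 6.36 and 6.45 at 2 h and 6.61, 6.46 and 6.55 at 4 h. Its 4 h arrays did not overlap with the control arrays, but the change of 0.15 ± 0.08 did not pass the threshold (limma, adjusted p = 0.363). The changes of Col4a3, Col4a4 and Col4a5 were 0.07 to 0.12.

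Type VI collagen forms beaded microfibrils around cells, and its classical molecule holds 1 chain each from Col6a1, Col6a2 and Col6a3. Limma called 0 of 8 probe sets in each comparison, and all 8 log2 fold changes at 4 h were above 0, at 0.01 to 0.26. Col6a1 had 7.65, 7.63 and 7.56 in control cells, 7.95, 7.68 and 7.59 at 20 min, 7.89, 7.47 and 7.67 at 2 h and 7.94, 7.63 and 7.67 at 4 h. Col6a2 had 7.42, 7.53 and 7.34 in control cells, 7.45, 7.50 and 7.58 at 20 min, 7.46, 7.37 and 7.49 at 2 h and 7.68, 7.42 and 7.43 at 4 h. Col6a3 had 6.48, 6.79 and 6.79 in control cells, 6.79, 6.79 and 6.76 at 20 min, 6.74, 6.53 and 6.88 at 2 h and 6.87, 6.72 and 6.79 at 4 h. The control and 4 h arrays of each of these 3 genes overlapped, with changes of 0.13 ± 0.08, 0.08 ± 0.08 and 0.11 ± 0.10. Col6a6, a chain that can take the place of the Col6a3 product, had 7.47, 7.74 and 7.55 in control cells, 8.04, 7.76 and 7.74 at 20 min, 7.74, 7.72 and 7.93 at 2 h and 7.80, 7.76 and 7.96 at 4 h on its brighter probe set. The 4 h arrays were above the control arrays there, though replicate 2 was nearly level, and the change was 0.26 ± 0.10 (limma, adjusted p = 0.22). The other probe set of Col6a6 gave 0.11 ± 0.07, and both probe sets of Col6a5 gave 0.04 and 0.15.

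The fibril-associated collagens decorate the surface of fibrils with interrupted triple helices. Limma called 0 of 9 in each comparison, and the median log2 fold change at 4 h was 0.05. Col12a1, which binds type I fibrils, was singled out after its values were seen because it varied more than the other members. It had 10.10, 8.86 and 7.93 in control cells, 9.21, 8.60 and 8.45 at 20 min, 9.14, 8.45 and 8.90 at 2 h and 9.44, 9.27 and 9.13 at 4 h. The control arrays spanned over 2 log2 units, with an SD of 1.09, and the 4 h arrays had an SD of 0.15 inside that span. The paired differences at 4 h were -0.66, 0.41 and 1.20 in replicates 1 to 3, for a change of 0.32 ± 0.28 (limma, adjusted p = 0.649). Leaving out single arrays decided its sign and size: the change was -0.14 without control replicate 3 and 0.73 without control replicate 1. Col19a1, a minor fibril-associated collagen, had 6.55, 6.51 and 6.38 in control cells, 6.65, 6.54 and 6.39 at 20 min, 6.65, 6.50 and 6.52 at 2 h and 6.58, 6.47 and 6.54 at 4 h. Col9a3, a chain of the cartilage collagen IX, had 7.87, 7.99 and 7.89 in control cells, 8.16, 7.94 and 7.88 at 20 min, 8.20, 7.84 and 7.98 at 2 h and 8.01, 7.87 and 8.0 at 4 h. Both overlapped between the groups, at 0.05 ± 0.06 and 0.04 ± 0.08. Of the other members, Col20a1 had the only change below 0, -0.18 ± 0.10 (limma, adjusted p = 0.424), and Col9a1, Col9a2, Col14a1, Col16a1 and Col22a1 ranged from 0.02 to 0.11.

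Transmembrane collagens span the plasma membrane and shed their ectodomains. The changes of Col13a1, Col17a1, Col23a1 and Col25a1 at 4 h were -0.05 to 0.12, and limma called 0 of 4. The last group holds the network-forming Col8a1, Col8a2 and Col10a1, the anchoring fibril collagen Col7a1, and Col26a1 and Col28a1. Their changes at 4 h were 0.00 to 0.12, and limma called 0 of 6. The control and 4 h arrays did not overlap for Col28a1, though 2 of the 3 differences were 0.03 and 0.05. In all, 4 of 46 collagen probe sets had every 4 h array above every control array, against 5.43% of all tested probe sets, and 0 of 46 had every 4 h array below, against 5.58%.

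The small changes of the collagen probe sets were mostly above 0. At 4 h, 41 of 46 log2 fold changes were above 0 (89.1%), against 57% of all tested probe sets, with a median of 0.08 against 0.02. The same count was 42 of 46 at 20 min, against 50.6% of all tested probe sets, and 34 of 46 at 2 h, against 53.5%, and for 4 h against 2 h it was 33 of 46, against 53.3%. The comparisons with control share the control arrays. By replicate the direction differed: at 4 h, 43 of 46 were above their own control in replicate 1, 8 of 46 in replicate 2 and 37 of 46 in replicate 3, against 55.8%, 49.3% and 50.4% of all tested probe sets. The median differences were 0.27, -0.08 and 0.06. The 11 fibrillar collagens were higher in 11, 0 and 9 cases. In 5 of 46 cases (10.9%) the 4 h array was higher in all 3 replicates, against 18.2% of all tested probe sets, and in 1 case, Col18a1, it was lower in all 3, against 17.4%.

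Without replicate 1, 18 of 46 collagen changes at 4 h were above 0 (39.1%) with a median of -0.02, and without the control array of replicate 1 alone, 22 of 46 (47.8%) with a median of -0.01. The shares over all tested probe sets were 50.4% without replicate 1 and 50.9% without that control array. At 20 min the counts were 26 (56.5%) and 24 of 46 (52.2%), against 47.4% and 47% of all tested probe sets, and at 2 h they were 12 (26.1%) and 9 of 46 (19.6%), against 49.3% and 49%. The share above 0 without that array was thus below that of all tested probe sets at 2 h and 4 h and above it at 20 min. In replicate 1 the collagen median was 7.43 at 20 min, 7.44 at 2 h and 7.49 at 4 h, against 7.19 in control cells. The median over all tested probe sets was 7.26 to 7.28 in those treated arrays and 7.21 in that control array.

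**Figure D3:**
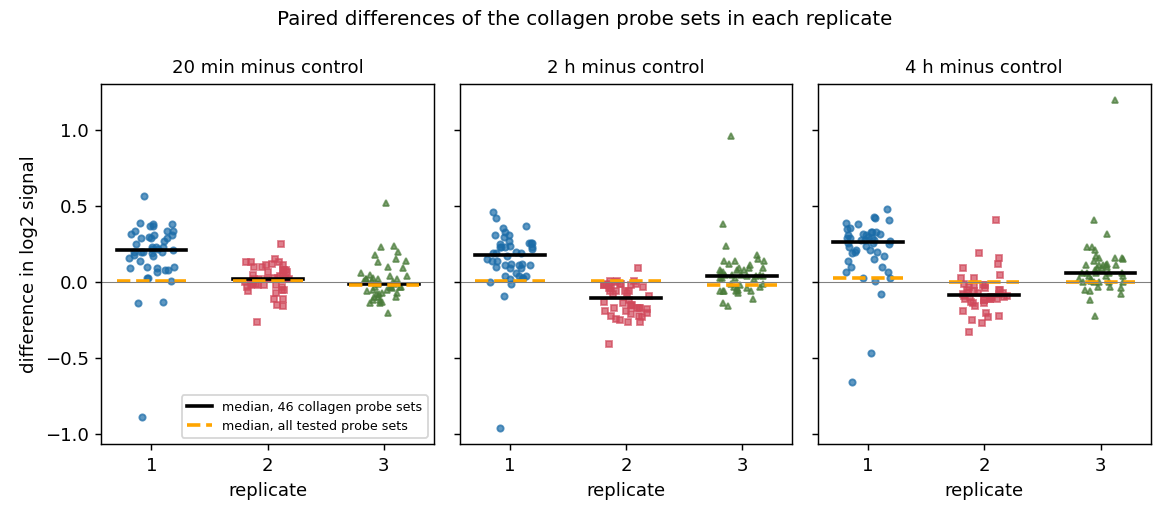
Difference of each treated array from the control array of the same replicate for the 46 collagen probe sets (points), in 3 panels for 20 min, 2 h and 4 h; the vertical axis is the difference in log2 signal, black bars are medians of the collagen probe sets and dashed bars medians of all tested probe sets. Points of replicate 1 lie mostly above 0 in every panel, and at 4 h the medians are 0.27, -0.08 and 0.06 in replicates 1 to 3.

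Some collagen signals differed between the replicate numbers. In the F test of the replicate number, limma called 9 of 46 collagen probe sets (19.6%), against 34.8% of all tested ones. They were Col4a1, Col4a2, Col6a1, Col8a1, Col10a1, Col12a1, Col18a1, Col20a1 and Col27a1, and all 9 were highest in replicate 1, as were 40 of the 46 members. The range of the 3 replicate means was larger than the size of the change at 4 h for 33 of 46. How many of all tested probe sets were highest in replicate 1, or had such a range, was not counted. These counts are therefore not shown to be particular to collagens. Of the 17 stellate and fibroblast markers, 3 were called in the F test of the replicate number, and 2 of these were highest in replicate 1. Dcn, a collagen-binding proteoglycan gene, had 9.58, 7.70 and 7.48 at 4 h, against 10.32, 7.89 and 8.01 in control cells, whereas the matrix protein gene Ecm1, with 8.87, 9.59 and 9.58 at 4 h, against 8.96, 9.45 and 9.51 in control cells, was lowest in replicate 1. The summed signal of these 17 markers was 2574 to 3019 at 4 h, against 2518 to 3411 in control cells, with replicate 1 the highest. Without Dcn the sum of the other 16 was 2251 to 2442 at 4 h, against 2135 to 2287 in control cells, with replicate 1 the lowest. That of the 12 endothelial markers was 2459 to 3466 at 4 h, against 2520 to 3808 in control cells, with replicate 1 the highest. The part of other cell types in the collagen signals was not tested, and in bulk samples fewer cells of a type and less RNA per cell cannot be told apart.

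**Figure D4:**
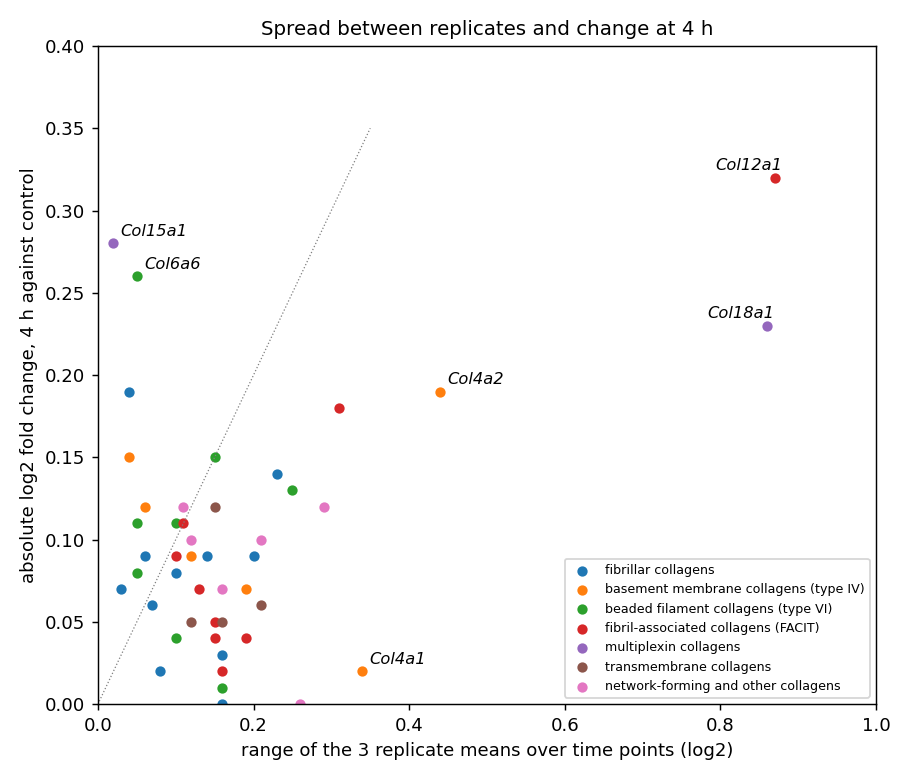
For each collagen probe set, the range of the 3 replicate means over all time points (horizontal axis, log2) against the absolute log2 fold change at 4 h (vertical axis), coloured by class; the dotted line marks equality. Col15a1 lies far above the line at a range of 0.02 and a change of 0.28, whereas Col12a1 and Col18a1 lie far below it at ranges of 0.87 and 0.86.

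Markers of other cells also moved at 4 h. Limma called 1 of 17 stellate and fibroblast markers, Dcn at -0.48 ± 0.09, 2 of 12 endothelial markers, Lyve1 and Fcgr2b, and 7 of 15 Kupffer cell and macrophage markers, all lower at 4 h. Of the hepatocyte markers it called 1 of 10, Tat, also lower, and of the cholangiocyte markers 0 of 6. Over all tested probe sets 3.02% were called lower at 4 h. The marker calls were not put through the alternative fits. The summed signal of the Kupffer cell markers was 4792 to 5691 at 4 h, against 6189 to 7232 in control cells, without overlap. Col15a1 and Col18a1 are both expressed in cells other than hepatocytes as well, and whether their changes follow these markers was not tested.

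Genes that act on collagen were set beside the chains. Of 20 genes for the folding, modification and secretion of procollagen limma called 0 at 4 h, with a median log2 fold change of 0.01, and of 9 collagen receptor genes it called 0. Of 11 genes for the cleavage and cross-linking of procollagen, 3 rose at 4 h and 0 fell. Over all tested probe sets 1.57% were called higher at 4 h and 3.02% lower. Lox encodes lysyl oxidase, which starts the cross-linking of collagen fibers, and had 11.24, 10.61 and 10.56 at 4 h, against 10.38, 9.15 and 8.73 in control cells. Its 4 h arrays were all above the control arrays, with a log2 fold change of 1.38 ± 0.16 (limma, adjusted p = 0.0017). Bmp1, the protease that removes the C-terminal propeptide of fibrillar procollagens, had 10.05, 10.84 and 10.70 at 4 h, against 9.84, 9.86 and 10.08 in control cells. These groups overlapped slightly, and the change was 0.61 ± 0.12 (limma, adjusted p = 0.0151). Pcolce2, an enhancer of that cleavage, had 7.33, 7.77 and 7.98 at 4 h, against 6.99, 7.33 and 7.49 in control cells, which overlapped, and changed by 0.42 ± 0.06 (limma, adjusted p = 0.00453), higher in 3 of 3 replicates. Of 8 genes for collagen-degrading enzymes 1 fell, the neutrophil collagenase Mmp8, with 5.72, 5.66 and 5.73 at 4 h, against 6.07, 6.14 and 5.93 in control cells, at -0.35 ± 0.08 (limma, adjusted p = 0.035). The mean signal of Mmp8, 5.87, lay below the lower quartile of all tested probe sets, 5.91.

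These calls differed in how far they held. Over the alternative fits, Lox was called in 24 of 25, Pcolce2 in 21 of 25, Bmp1 in 15 of 25 and Mmp8 in 9 of 24. Without replicate 2 the change of Bmp1 was 0.42 (limma, adjusted p = 0.146), without replicate 3 it was 0.60 (limma, adjusted p = 0.212), and Pcolce2 was lost without either (limma, adjusted p = 0.0913 and 0.129). Of 8 known TGF-β response genes 4 rose at 4 h, the matrix-associated Ccn2 by 1.96 ± 0.21, the SMAD-binding Pmepa1 by 2.78 ± 0.23, the TGF-β activating matrix protein gene Thbs1 by 1.48 ± 0.19 and the SMAD corepressor gene Skil by 1.31 ± 0.28. The other 4 were not called: Smad7 at 1.11 ± 0.34 (limma, adjusted p = 0.0993), Fn1 at 0.13, Ltbp2 at 0.07 and Tgfbi at -0.06. The share called higher at 4 h over all tested probe sets was 1.57%. All 46 collagen changes at 4 h in the same arrays were between -0.23 and 0.32, a range that also holds Fn1, Ltbp2 and Tgfbi. At 20 min and at 2 h limma called 0 members of any of these lists.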

How the data were processed

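RNA of 12 samples of primary mouse HPC was hybridised to 1-colour Affymetrix arrays. The deposited values are log2 signals, for which the submitters' processing notes name RMA (background correction, normalization between arrays, summary of probes) and Affymetrix Power Tools. Versions are not given in the sources used here. For its own analysis the paper states FARMS, and ComBat to lessen the batch effect in the mouse HPC chips. Of 35556 probe sets, 21789 with exactly 1 symbol in the platform table were tested, and 1621 with several symbols and 12146 with none listed were left out. Array signals hold no counts, and 3 arrays per group limit the precision.

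Each probe set was fitted in R 4.3.3 with limma 3.58.1, with factors for time point and for replicate number (6 residual and 5.39 prior degrees of freedom), with Benjamini-Hochberg adjustment across the tested probe sets. The fit was tested on simulated data. Values of arrays with the same replicate number deviated together from their group means, with 18 correlations of 0.56 to 0.88. The 36 pairs of different number gave -0.81 to 0.72, and 0 pairs of arrays were identical. All negative correlations were between replicate 1 and the others. Arrays of replicate 2 against those of replicate 3 gave 0.54 to 0.72. The correlations thus set replicate 1 apart but do not show that replicates 2 and 3 are paired. The numbers were taken as pairs because the study's methods use a replicate factor. Standard errors are from the fit, SDs are between arrays.

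Named are the collagen probe sets called in any comparison, 12 fixed chains of types I, III, IV, V, VI, XV and XVIII, up to 6 members with the smallest p at 4 h and up to 4 in the other comparisons, and up to 4 called members of other lists. The members, lists and rules were chosen with earlier results of these data known. The replicate F test, the direction counts without replicate 1, the sum without Dcn and the alternatives for Col12a1, Lox, Bmp1, Pcolce2 and Mmp8 were added after seeing the data. Gene positions and promoter sequences are from RefSeq, GRCm38.p6. Alternatives were other treatments of the block, other sets of arrays or probe sets, quantile normalization, median centring, array weights, another prior, other thresholds and leaving out replicates or arrays.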

Additional observations from a re-analysis of the deposited data

How the results depend on the processing

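The call of Col15a1 depended on the fit. The 1 collagen probe set called at 4 h, Col15a1, became 0 called without the replicate block (limma, adjusted p = 0.215), with the block as a random effect (0.0625), with the compared groups alone (0.116), with all probe sets tested (0.0961), with a trended and robust prior (0.0782) and under the stricter rule, and the count ranged from 0 to 1 when single replicates or arrays were left out. Without the block limma called 31 of all tested probe sets at 4 h, in place of 1000, and 101 without replicate 2 and 32 without replicate 3, and Lox, Bmp1, Pcolce2 and Mmp8 were not called without the block (limma, adjusted p = 0.35 to 0.97). Counts of collagen probe sets called in the other comparisons did not move, and collagen class medians at 4 h stayed within -0.06 to 0.19. Counts over all tested probe sets did move there: over the time course limma called 305 in the main fit, 0 without the block and 1081 with array weights. The cause of each loss was not tested.

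Changes near 0 that were not called turned sign in some settings. Where single replicates or arrays were left out, the log2 fold change at 4 h ranged from -0.04 to 0.19 for Col1a2, -0.04 to 0.13 for Col3a1, -0.07 to 0.12 for Col5a1, -0.06 to 0.07 for Col5a2, -0.07 to 0.03 for Col4a1, -0.01 to 0.17 for Col6a2, -0.03 to 0.20 for Col6a3, -0.05 to 0.13 for Col9a3, -0.01 to 0.09 for Col19a1 and -0.14 to 0.80 for Col12a1. With quantile normalization Col5a2 was at -0.01, and with array weights Col5a2 was at -0.03 and Col3a1 at -0.01.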
